A study of Drosophila melanogaster with 4 samples.

Results

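Chromosome 4, the assembled heterochromatin scaffolds and the centromere-side ends of 4 chromosome arms of *Drosophila melanogaster* held 424 of the 6056 regions enriched for ubiquitylated histone H2B in the combined list of the study. The same territory held 344 of 5440 regions in replicate 1 and 371 of 5597 in replicate 2. A region, called a cluster here, was taken by position and not by its measured value. It belonged to the set when it lay on chromosome 4, XHet, 2LHet, 3LHet, 3RHet or YHet, or when its midpoint fell in the last 2 Mb of the X, 2L or 3L sequence or the first 2 Mb of 3R, which are the centromere ends. The 3 classes were chromosome 4 with 76 combined clusters, the 5 Het scaffolds with 41, and the proximal zones with 307, of which 89 were on X, 55 on 2L, 46 on 3L and 117 on 3R. They were compared with the rest of X, 2L, 3L and 3R, which held 4460 combined clusters, and each proximal zone with the rest of its own arm. 2R and 2RHet entered neither side.

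The study immunoprecipitated chromatin from head nuclei with the NRO3 antibody against ubiquitylated H2B (H2Bub) and sequenced 2 ChIP libraries and 2 input libraries. All 4 came from wild-type Oregon-R-modENCODE flies raised in population cages and collected as mixed adults, with heads separated by sieving, so that the chromatin is a mix of all cell types of the head. The sex of the flies is not given in the sources used here. Nothing in the labels says that the replicates are separate fly populations, so the spread between them may be technical.

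H2B carries a single ubiquitin on its C-terminal tail in the bodies of transcribed genes, where the Bre1 and Rad6 enzymes place it as RNA polymerase II passes, and the mark takes part in methylation of histone H3 on active genes. Pericentric heterochromatin is rich in satellite and transposon repeats, carries methylated H3 lysine 9 and the protein HP1a, and has few genes. Chromosome 4 is a small chromosome that is bound by HP1a and by the chromosome-specific protein POF along much of its length, and yet it holds many expressed genes among its repeats. The proximal zones of the assembled arms run toward pericentric heterochromatin.

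The mark covered about 1% of the Het scaffolds, a far smaller share than of chromosome 4, and chromosome 4 itself had less of its sequence under clusters than the rest of the arms. Clusters covered 10.98% of chromosome 4 in replicate 1 and 14.14% in replicate 2, against 28.6% and 29.4% of the rest of the arms. The Het scaffolds had 1.01% and 1.30% of their sequence under clusters. Both classes had a lower share than the rest of the arms in each replicate. The difference from the rest of the arms was -16.5 ± 1.63 percentage points for chromosome 4 and -27.9 ± 0.402 points for the Het scaffolds (mean ± SD, n = 2 replicates). With 2 replicates an exact two-sided permutation test cannot give a p below 0.5, so differences are set against the replicate SD only. Shares are of the full assembled sequence, and the part of it to which reads can be assigned was not measured, so its part in these differences was not tested.

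The proximal zones fell into 2 patterns, with X, 2L and 3L poorer in clusters than the rest of their arms and 3R richer. Clusters covered 13.2% and 15.2% of the proximal X in replicates 1 and 2, against 27.6% and 29.8% of the rest of X. On 2L the proximal shares were 12.9% and 13.3%, against 29.0% and 29.4% of the rest of that arm. On 3L they were 9.66% and 10.2%, against 28.1% and 28.6%. These are differences of -14.5 ± 0.0815, -16.2 ± 0.00194 and -18.4 ± 0.0822 percentage points on X, 2L and 3L (mean ± SD, n = 2). The proximal 3R had 33.2% and 34.6% of its sequence under clusters, against 29.4% and 29.9% of the rest of 3R, a difference of 4.22 ± 0.682 points. In each replicate the differences of chromosome 4, the Het scaffolds and the X, 2L and 3L zones were negative, and that of 3R was positive. The sign on 3R depends on the size of the zone: the difference was -6.43 points with a zone of 1 Mb and -1.70 points with a zone of 3 Mb.

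**Figure D1:**
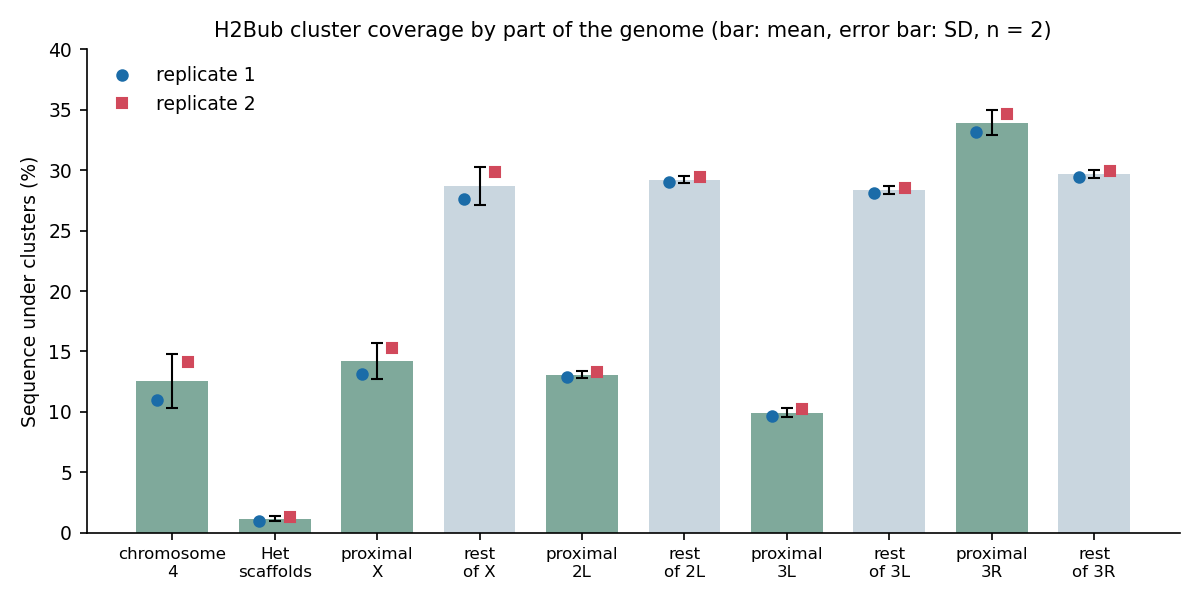
Share of the sequence under H2Bub clusters (%, linear axis from 0) on chromosome 4, the Het scaffolds and the proximal 2 Mb of 4 arms (green bars), with the rest of each arm at its right (grey bars). Bars are means, error bars SDs and symbols the 2 replicates; the proximal 3R, at 33.2% and 34.6%, is the one green bar above its grey neighbour.

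Clusters per megabase were also fewer on the Het scaffolds and in the X, 2L and 3L zones than in the rest of the arms, while chromosome 4 lay closer to the rest. Chromosome 4 had 37.0 and 42.2 clusters per Mb in replicates 1 and 2, against 45.3 and 46.4 in the rest of the arms. In the combined list the order turned, with 56.2 clusters per Mb on chromosome 4 and 49.6 in the rest of the arms, so the difference in number has no fixed sign across the 3 lists. The Het scaffolds had 4.51 and 5.34 clusters per Mb. Proximal X had 33.5 and 38.0 per Mb, against 54.4 and 54.0 in the rest of X. Proximal 2L had 24.0 and 26.5 per Mb, against 42.3 and 42.9, and proximal 3L had 20.0 and 20.5, against 42.3 and 43.6. Proximal 3R had 56.0 per Mb in each replicate, against 43.1 and 45.6 in the rest of 3R.

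Clusters on chromosome 4 and on the Het scaffolds were narrow. Their median width on chromosome 4 was 2574.5 bp in replicate 1 and 2770 bp in replicate 2, and on the Het scaffolds 2144 bp and 2057.5 bp, against 3481 bp and 3495 bp in the rest of the arms. Clusters wider than 10 kb made up 14.9% of the replicate 1 list, 15.3% of the replicate 2 list and 16.9% of the combined list. Chromosome 4 had 1 such cluster in each of the 3 lists and the Het scaffolds had none. The proximal zones had 25, 32 and 49 such clusters, against 639, 669 and 783 in the rest of the arms. At the other end, 22.8% of all clusters in replicate 1 and 23.0% in replicate 2 were at most 2 kb wide. On chromosome 4 these were 16 of 50 clusters in replicate 1 and 12 of 57 in replicate 2, on the Het scaffolds 11 of 27 and 14 of 32, and in the proximal zones 66 of 267 and 63 of 282. Median widths in the proximal zones were 2686 and 2517 bp on X, close to those of chromosome 4, against 3032.5 and 3245.5 bp in the rest of X. On 2L they were 3023.5 and 3134 bp, against 3641 and 3602 bp in the rest of 2L. On 3L they were 3324.5 and 3413 bp, against 3768 and 3607 bp in the rest of 3L. On 3R the proximal median was 4239 and 4200 bp, against 3676 and 3661 bp in the rest of 3R. In the combined list the order on 3R turned, with 3727 bp in the proximal zone and 3749 bp in the rest.

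Each deposited cluster has a score whose scale is not given in the sources used here, so it was read as a percentile within its own list, 100 being the highest. The median percentile was 23.7 in replicate 1 and 33.1 in replicate 2 on chromosome 4, and 14.1 and 18.9 on the Het scaffolds, against 51.8 and 51.2 in the rest of the arms. The differences were -23.1 ± 7.06 percentile points for chromosome 4 and -34.9 ± 3.82 points for the Het scaffolds (mean ± SD, n = 2). Against the rest of 2L, 3L and 3R only, without X, they were -18.1 and -29.9 points. In the combined list the Het difference was -16.7 points. The proximal zones together, at 49.2 and 48.1, lay 2.83 ± 0.369 points lower than the rest of the arms. Proximal X had medians of 52.7 and 49.7, against 59.4 and 58.4 in the rest of X, and proximal 3L had 35.3 and 42.5, against 46.6 and 46.9. For 3L the combined list gave the opposite order, 52.0 in the proximal zone and 48.6 in the rest. Proximal 2L had 50.4 and 47.6, against 45.6 and 47.0, and proximal 3R had 49.1 and 49.3, against 45.8 and 47.5. The cluster-poor 2L zone therefore held clusters whose median score was at or above that of the rest of its arm.

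Score and width were related in every class, so scores were also read within a band of widths. Among clusters over 2 kb and up to 5 kb wide, the median percentile on chromosome 4 was 35.6 for 29 clusters in replicate 1 and 43.0 for 36 in replicate 2. On the Het scaffolds it was 25.1 for 16 clusters and 46.9 for 18, and in the proximal zones 43.3 and 46.0, against 46.6 and 47.4 in the rest of the arms. Among clusters of at most 2 kb, chromosome 4 had medians of 1.50 and 4.59 and the Het scaffolds 4.30 and 2.98, while the proximal zones had 13.6 and 13.5, against 15.0 and 13.6 in the rest of the arms. The narrow clusters of chromosome 4 and of the scaffolds thus had lower scores than equally narrow clusters elsewhere in both replicates, while at 2 to 5 kb the Het value in replicate 2 lay within 1 point of the rest of the arms.

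**Figure D2:**
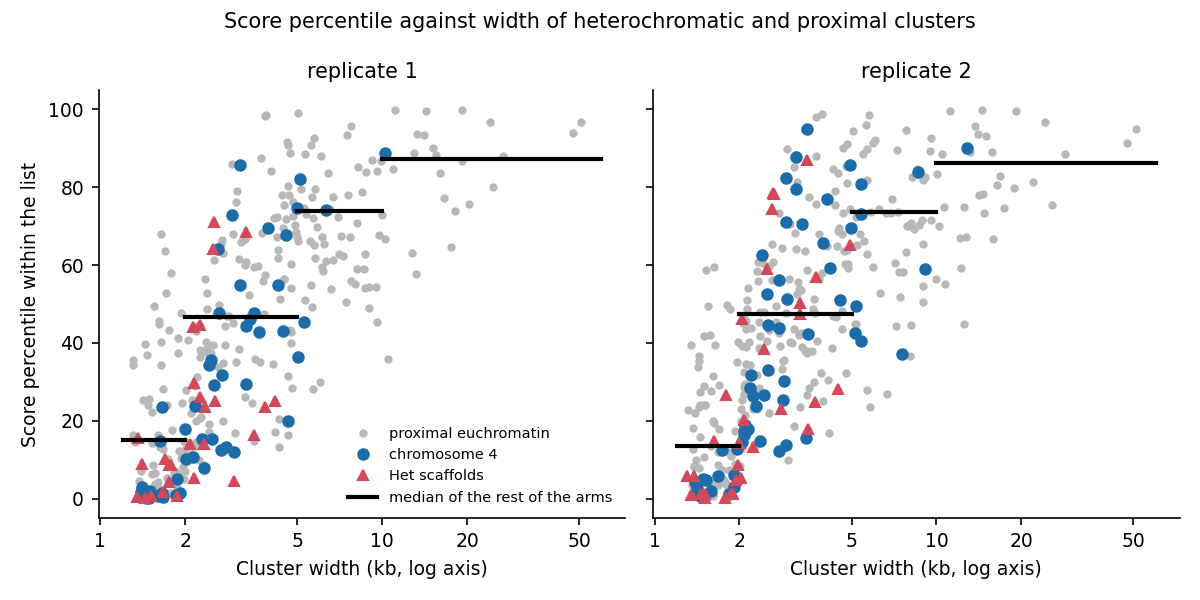
Score percentile within the replicate list against cluster width (kb, log axis) for chromosome 4 (blue circles), the Het scaffolds (red triangles) and the proximal zones (grey dots), with 1 panel per replicate. Black lines are medians of the rest of the arms within bands of width; the widest clusters are those of the proximal zones, and no Het cluster exceeds 5 kb in either replicate.

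On chromosome 4 the clusters were spread over the sequence rather than gathered at one side. Divided into 250-kb pieces, the last of them longer, the chromosome had covered shares of 13.3%, 12.4%, 17.3%, 8.24% and 11.8% (means of 2 replicates). The lowest piece, from 750001 to 1000000, had 7.02% and 9.45% in replicates 1 and 2, and the highest, from 500001 to 750000, had 16.2% and 18.5%. The ends were bare: in the replicates the outermost clusters started at 59858 and 59983 and ended at 1237692 and 1237754, leaving 114165 and 114103 bp without a cluster at the high-coordinate end. The combined list adds clusters up to 1299590 there. The longest inner stretch without a combined cluster ran from 702523 to 805757, 103235 bp, and it held none in the replicates either.

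The strongest and widest clusters of chromosome 4 were found in both replicates, and all 5 named here ranked higher in replicate 2. The highest score belonged to the 3471-bp cluster from 975936 to 979406, which ranked 392 of 6056 in the combined list, 780 in replicate 1 and 291 in replicate 2. The widest cluster, 13199 bp from 566102 to 579300, was also the second in score, with a combined rank of 599, and was made of 2 clusters in replicate 1 and 1 in replicate 2. The third in score, from 59744 to 64920, was the outermost cluster at the low-coordinate end and ranked 1386 in replicate 1 and 808 in replicate 2. Next in width came an 8589-bp cluster from 89462 to 98050 and a 5607-bp cluster from 1042274 to 1047880. The cluster from 89462 to 98050 was 73.3% covered in replicate 1 and 99.9% in replicate 2. That from 1042274 to 1047880 was 94.2% covered in replicate 1 and 96.3% in replicate 2, and its percentile was 45.4 in replicate 1 and 73.1 in replicate 2.

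The Het scaffolds differed among themselves. XHet, of 0.204 Mb, had 3 clusters in each list and 2.76% and 3.72% of its sequence covered in replicates 1 and 2, and 2LHet, of 0.369 Mb, had 5 clusters in each list and 2.68% and 3.21% covered. The larger 3LHet had 11 and 13 clusters and 0.866% and 1.10% covered, and 3RHet had 8 and 11 clusters and 0.915% and 1.20% covered. YHet was without any cluster in the replicates, and its 1 combined cluster was 1607 bp wide, from 339704 to 341310. Values from 0 to 5 clusters rest on few regions, so the order of the scaffolds is given without a test.

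Much of each large scaffold held no cluster, and some of those present stood close together while others stood apart. On 3LHet, for example, the replicate 1 cluster from 1392017 to 1393421 lay between stretches of 681613 and 796212 bp without a cluster. On 3RHet no replicate cluster lay in the first 1691 kb, and the next group, chosen for description after positions were seen, held 3 clusters in replicate 1 and 4 in replicate 2 over 14.8 and 15.6 kb. On 3LHet the longest stretch without a cluster was 796 kb in replicate 1 and 795 kb in replicate 2. Between 593946 and 607466 of 3LHet stood 3 clusters in each list, and between 2397174 and 2419052 stood 3 in replicate 1 and 4 in replicate 2. On 2LHet 4 of the 5 clusters lay between 20064 and 36476. Stretches of over 100 kb without a cluster made up 92.4% and 92.3% of 3LHet in replicates 1 and 2, and 90.1% and 89.8% of 3RHet, against 16.1% of chromosome 4 in each replicate. They made up 89.5% and 89.4% of 2LHet, and 57.7% and 57.8% of XHet. In the proximal zones, with stretches cut at the zone edge, they made up 71.8% and 58.7% on X and 46.6% and 46.8% on 2L. On 3L they made up 59.1% in each replicate, and on 3R 14.4% in each.

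Of the 5 highest-scoring Het clusters of the combined list, 3 were present in both replicates, and all 3 lay on 3LHet. The cluster from 593946 to 597474, 3529 bp, was at the 68.5th percentile of replicate 1 and the 87.0th of replicate 2. The cluster from 2242816 to 2245586 was at the 71.0th and 78.5th, and that from 2397174 to 2399836 at the 64.2nd and 78.1st. The other two, with the highest combined scores of the class, had no counterpart in either replicate. One of them, 1001 bp on 3LHet from 1257282 to 1258282, had the highest score of all 6056 combined clusters, and the other, 1861 bp on 3RHet from 1179534 to 1181394, ranked 576.

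The widest Het clusters were found in both replicates but were mid-ranking or low in score. The widest, on 2LHet from 25512 to 30796, was 5285 bp in the combined list, of which 40.4% was covered in replicate 1 and 70.1% in replicate 2. The 3 next in width lay on 3RHet. They were from 1819700 to 1824616, from 1690994 to 1695828 and from 1700600 to 1704578, and stood at the 25.2nd, 23.5th and 16.4th percentile in replicate 1 and at the 65.2nd, 28.1st and 17.8th in replicate 2. The fifth, on XHet from 59790 to 63756, had its replicate 1 part 1781 bp wide at the 8.58th percentile. Its replicate 2 part measured 3725 bp and stood at the 56.8th.

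Along the arms, taken in whole megabases, the covered share of X, 2L and 3L was lowest in the megabase next to the sequence end. In the first megabase it was 5.45% ± 0.0837 on 2L and 2.71% ± 0.855 on 3L, in the second 20.7% ± 0.480 and 17.2% ± 0.0535, and in the third, already outside the zone, 27.7% ± 0.707 and 36.9% ± 0.544 (mean ± SD, n = 2). On X the shares were 10.3% ± 1.53, 18.1% ± 1.42 and 25.1% ± 0.0554. On each of these 3 arms every megabase had a higher share than the one before it, by more than the SD of either. On 3R they were 23.8% ± 1.16, 44.0% ± 0.921 and 17.6% ± 0.268, with the highest value in the second megabase and the lowest in the third. The first megabase of 3R lay below the 29.7% of the rest of that arm and the second above it.

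In pieces of 250 kb the first 5 pieces of 2L and of 3L were all under 10% covered, with maxima of 8.10% and 4.82% (mean of the replicates). Pieces under 10% were 8 of 84 in the rest of 2L and 7 of 90 in the rest of 3L. On X 3 of 8 proximal pieces were under 10%, against 7 of 81 in the rest, and on 3R 0 of 8, against 7 of 103. The fifth piece of 2L, from 1000 to 1250 kb from the end, and the eighth of X held no cluster in either replicate. On 2L and X the emptiest piece of the zone was therefore not the one next to the sequence end. The same held on 3L and 3R, whose emptiest pieces had 1.47% and 11.9% covered (mean of the replicates). On 3R the fifth and sixth pieces were the fullest of the zone, with 55.3% and 61.4% covered in replicates 1 and 2 in the fifth and 54.8% and 55.2% in the sixth.

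**Figure D3:**
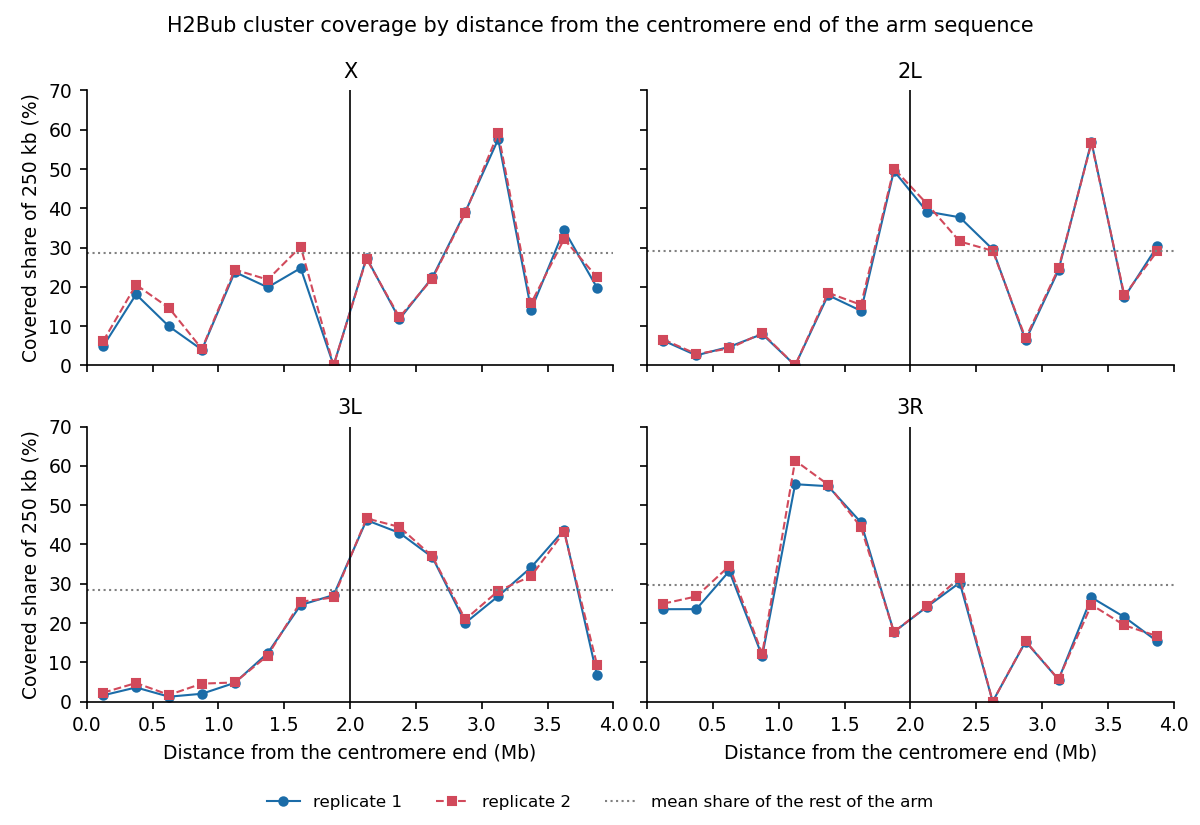
Covered share of 250-kb pieces (%) against distance from the centromere end of the sequence (Mb) on X, 2L, 3L and 3R, with replicate 1 as blue circles and replicate 2 as red squares. The vertical line is the 2-Mb edge of the zone and the dotted line the mean share of the rest of the arm; the first 5 pieces of 2L and 3L stay under 10%, and those of 3R lie between 11.9% and 58.4% (mean of the replicates).

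Clusters nonetheless reached close to the sequence ends. The innermost combined cluster ended 5967 bp from the end of X, 7221 bp from that of 3L and 47292 bp from that of 2L, and on 3R it began 46105 bp from the start. All 4 were found in both replicates. The innermost cluster of X, from 22413688 to 22416860, was at the 3.25th percentile in replicate 1 and the 40.0th in replicate 2. That of 3L, from 24530194 to 24536336, was made of 2 clusters in replicate 1, at the 0.349th and 8.75th percentile, and stood at the 27.9th in replicate 2. That of 2L, from 22962218 to 22964252, was at the 8.53rd and 23.1st. That of 3R, from 46106 to 49598, stood at the 60.1st and 77.5th, above the other 3 in each replicate.

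The longest stretch without a combined cluster was of similar length in the X, 2L and 3L zones. It was 344421 bp on X from 21501627 to 21846047, 361469 bp on 2L from 21759803 to 22121271, and 373193 bp on 3L from 23334389 to 23707581. On 3R the longest was 165050 bp, from 1834951 to the zone edge at 2000000, where it was cut off. Outside the zone the nearest combined cluster started at 2170174, so the 165050 bp are only a part of this stretch. The stretches given for X, 2L and 3L lay wholly inside their zones, so the cut length on 3R is not comparable with them. The longest stretch wholly inside the 3R zone was 122961 bp, from 779101 to 902061. At the edge, the nearest combined cluster inside the zone had its midpoint 169 kb from the line on 3R, 255 kb on X, 21.0 kb on 2L and 0.863 kb on 3L. The nearest outside lay 172 kb away on 3R, 28.6 kb on X, 10.6 kb on 2L and 10.9 kb on 3L.

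The 2 highest-scoring combined clusters of the 2L zone and of the 3R zone were found in both replicates. The cluster on 2L from 21022954 to 21042204, 19251 bp, ranked 13 in the combined list, 10 in replicate 1 and 23 in replicate 2. Close to it, the cluster from 21048350 to 21052350, 4001 bp, ranked 71, 78 and 72. On 3R the cluster from 735790 to 750334, 14545 bp, ranked 16, 19 and 15, and that from 902062 to 913298, 11237 bp, ranked 19, 18 and 27. All 4 stayed above the 98th percentile in each list. The 2L pair lies just inside the zone edge, over 1959 kb from the end of the sequence, whereas the 3R pair lies 736 and 902 kb from it.

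On X and 3L the highest combined score belonged to a cluster that neither replicate held. On 3L it was 1075 bp wide, from 24096314 to 24097388, and ranked 2 of all combined clusters. On X it was 1157 bp wide, from 22313014 to 22314170, and ranked 387. The next in score were in both replicates. They were the cluster on 3L from 22790248 to 22797926, ranked 389 combined, 361 in replicate 1 and 580 in replicate 2, and the cluster on X from 21210196 to 21215748, ranked 438, 462 and 308.

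The widest proximal clusters were on 3R and X. The widest, 69663 bp on 3R from 1716206 to 1785868, was made of 3 clusters in replicate 1 and 5 in replicate 2, which together covered 88.6% and 91.8% of it. The second of 3R, 47845 bp from 1117290 to 1165134, was a single cluster in each replicate. On X the widest was 44515 bp from 20751580 to 20796094, made of 4 clusters in each replicate, and the second was 19469 bp from 22059134 to 22078602, made of 3 in each. The widest on 2L was 20927 bp from 21100964 to 21121890. On 3L they were 20605 bp from 22953888 to 22974492, with 4 parts in replicate 1 and 5 in replicate 2, and 19087 bp from 22759014 to 22778100.

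Replicates shared most clusters of each class. Over the whole lists, 93.0% of replicate 1 clusters and 88.1% of replicate 2 clusters overlapped the other replicate by 1 bp or more. On chromosome 4 it was 49 of 50 in replicate 1, 98.0% (Wilson 95% interval 89.5 to 99.6%), and 45 of 57 in replicate 2, 78.9% (66.7 to 87.5%). On the Het scaffolds it was 26 of 27, 96.3% (81.7 to 99.3%), and 26 of 32, 81.3% (64.7 to 91.1%). In the proximal zones it was 247 of 267, 92.5% (88.7 to 95.1%), and 245 of 282, 86.9% (82.4 to 90.3%), against 93.0% and 88.4% in the rest of the arms. The intervals hold for counting error alone and take each cluster as an independent draw. Clusters of 1 list are not independent replicates, so the intervals do not test any class against the share of all clusters. The 12 chromosome 4 clusters of replicate 2 alone all had a counterpart in the combined list and lay between the 2.04th and 28.3rd percentile.

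Of all combined clusters, 67.6% overlapped both replicates and 18.6% overlapped neither. On chromosome 4 46 of 76 were in both, 13 in replicate 2 only, 1 in replicate 1 only and 16 in neither. On the Het scaffolds 26 of 41 were in both, 5 in replicate 2 only, 1 in replicate 1 only and 9 in neither. In the proximal zones 205 of 307 were in both and 57 in neither, against 3029 and 827 of 4460 in the rest of the arms. Clusters in neither replicate were 24 of 89 on X, 4 of 55 on 2L, 9 of 46 on 3L and 20 of 117 on 3R. On chromosome 4 15 of the 16 and on the Het scaffolds all 9 were at most 2 kb wide. Of the 82 clusters of the whole set in neither replicate, 4 were among the top 10% of scores, the ones named above, against 6 of 827 in the rest of the arms.

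**Figure D4:**
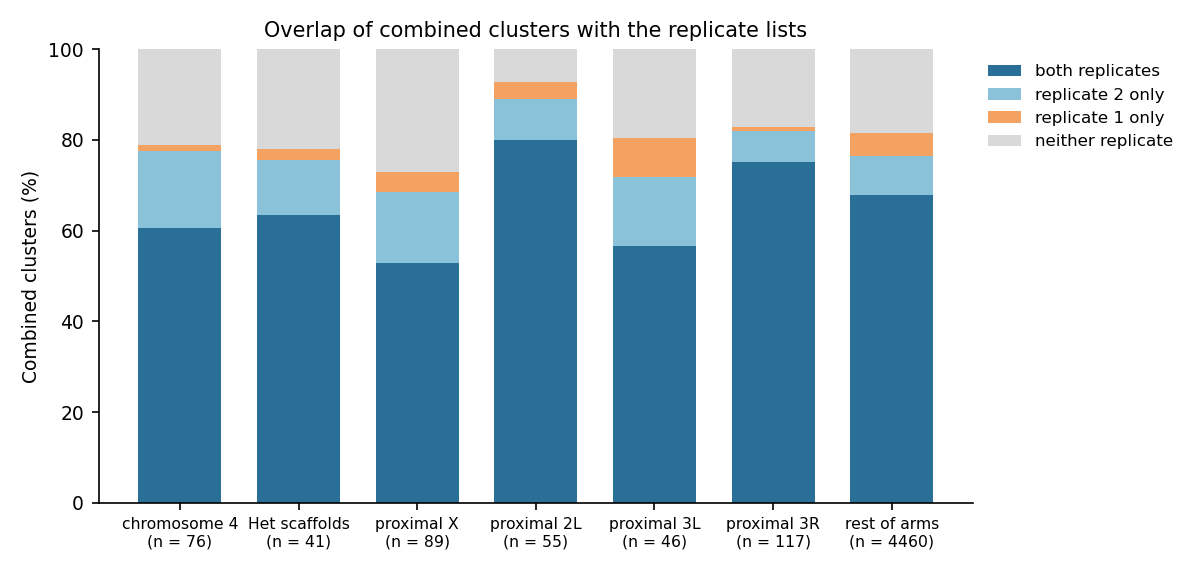
Share of combined clusters (%) that overlap both replicate lists, replicate 2 only, replicate 1 only or neither, for chromosome 4, the Het scaffolds, the 4 proximal zones and the rest of the arms, with the number of combined clusters under each bar. Proximal 2L has the smallest share in neither, at 7.27%, and proximal X the largest, at 27.0%.

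Replicate 2 had more of chromosome 4 and of the Het scaffolds under clusters than replicate 1, by a larger factor than elsewhere. The covered length in replicate 2 was 1.29 times that in replicate 1 on chromosome 4 and 1.28 times on the Het scaffolds. The factor was 1.16 on proximal X, 1.03 on proximal 2L, 1.06 on proximal 3L and 1.04 on proximal 3R, against 1.03 in the rest of the arms. By arm, it was 1.08 in the rest of X, 1.01 in that of 2L, 1.02 in that of 3L and 1.02 in that of 3R. The bases shared by the replicates were 0.738 of their union on chromosome 4, 0.709 on the Het scaffolds and 0.691 on proximal X, against 0.858 in the rest of the arms. On the other zones this share was 0.867 on 2L, 0.796 on 3L and 0.882 on 3R. The rest of X, at 0.804, was also lower than the rest of 2L, 3L and 3R, at 0.877, 0.876 and 0.869. The bases of replicate 1 were nearly all within those of replicate 2 on chromosome 4, at 97.1%, whereas 75.4% of the replicate 2 bases were within those of replicate 1.

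Clusters that pair 1 to 1 between the replicates more often had the higher score percentile in replicate 2. On chromosome 4 35 of 39 pairs had the higher percentile in replicate 2, by a median of 13.2 points, and 31 of 39 were wider there. On the Het scaffolds it was 19 of 26, by a median of 3.80 points, and in the proximal zones 119 of 176, by 2.69 points, against 1531 of 2711, by 0.878 points, in the rest of the arms. On proximal 2L, whose covered length hardly differed between the replicates, it was 37 of 41 pairs, by 5.21 points. Percentiles of paired clusters went together in each class, and Spearman's rho over the pairs was 0.87 on chromosome 4, 0.85 on the Het scaffolds and 0.92 in the proximal zones, against 0.93 in the rest of the arms. These are descriptions over clusters of the same 2 libraries, which are not independent of each other.

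**Figure D5:**
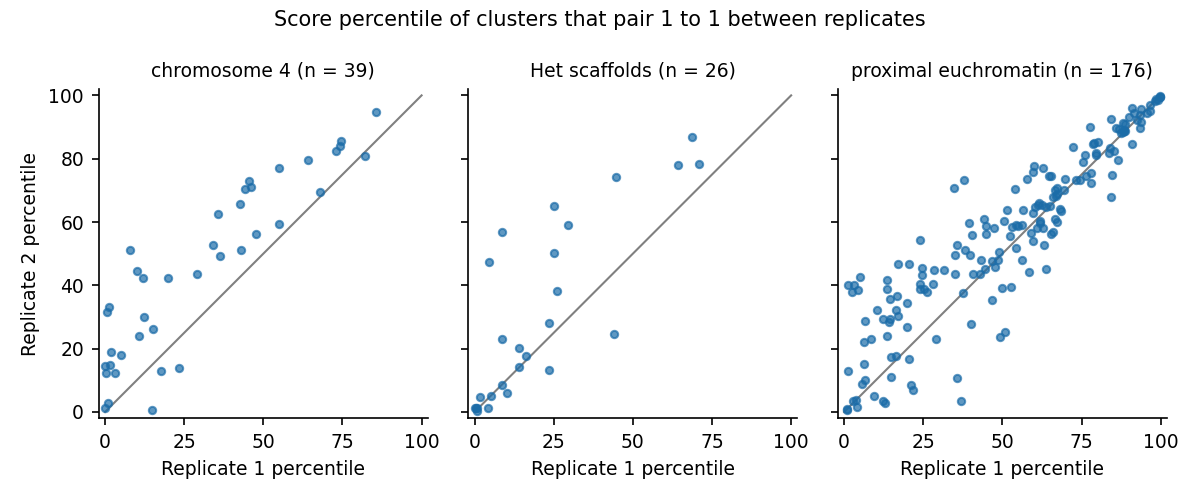
Score percentile in replicate 2 against that in replicate 1 for clusters that pair 1 to 1, on chromosome 4, the Het scaffolds and the proximal zones; the line marks equal percentiles. On chromosome 4 35 of 39 points lie above the line, and in the proximal zones 119 of 176.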

How the data were processed

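The 3 lists analysed were 1 of enriched clusters for each ChIP replicate and 1 combined list. Per the file headers, they use FlyBase release 5 coordinates, with a start, an end and a score for each cluster. The score is the authors' own deposited value. The sources used here do not give its scale, the cluster caller, the threshold or how the lists were combined. Per the submitters' processing notes, Bowtie 0.12.7 was used. Input libraries were not analysed here, and no read depth was given for any library, so precision rests on the 2 replicates. Regions called depleted (2 in the combined list, 0 on chromosome 4 or a Het scaffold) were left out.

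From the lists, covered bases, clusters per Mb, widths, score percentiles (ties averaged) and overlaps of at least 1 bp were computed in each replicate with Python 3.11.15, NumPy 2.4.6, pandas 2.3.3 and SciPy 1.17.1, after the code was tested on simulated data. Bases were assigned by the zone they lie in, and clusters by their midpoint. Overlapping clusters were counted once in covered bases. Wilson intervals are at 95%. No test across clusters was made. Release 5 sequence and genes were not used here, so the head label could not be checked against genes. The clusters named are, from the combined list, the 3 widest and 3 highest-scoring of chromosome 4, 5 of each kind on the Het scaffolds, and 2 of each kind with the innermost in each proximal zone. Zones, classes and rules were chosen with earlier results of these data known. Alternatives were another zone size, merging of clusters less than 1000 bp apart, the upper 50% by score, clusters over 2000 bp, reciprocal overlap of 50%, the combined list and each replicate alone.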

Additional observations from a re-analysis of the deposited data

How the results depend on the processing

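With a proximal zone of 1 Mb the differences in covered share from the rest of the arm were -17.9 points on X, -23.4 on 2L, -25.2 on 3L and -6.43 on 3R. With 3 Mb they were -11.0, -11.3, -9.02 and -1.70, so that 3R reversed under both. The other differences kept their sign under every alternative run. With the upper 50% of each list by score they were -22.9 points for the Het scaffolds, -13.8 for proximal X, -12.8 for 2L, -15.4 for 3L and 2.58 for 3R. With clusters less than 1000 bp apart merged they were -28.4, -14.7, -16.4 and -18.6 for the Het scaffolds, X, 2L and 3L. From the combined list they were -32.5, -14.2, -18.9 and -20.7, and 5.01 for 3R. The cause of these shifts was not tested. From 1 replicate alone the difference ranged from -17.6 to -15.3 points for chromosome 4, and from 3.74 to 4.71 for proximal 3R.

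With each list cut to its upper 50% by score, a partner also had to lie in the upper 50% of the other replicate. Shared clusters on the Het scaffolds were then 68.8%, a mean of 100% for 3 clusters in replicate 1 and 37.5% for 8 in replicate 2. On chromosome 4 the same setting gave 100% for 11 clusters in replicate 1 and 52.4% for 21 in replicate 2. Against the whole replicate 1 list, all of these replicate 2 clusters had a partner. Clusters found in replicate 2 alone reached only the 46.2nd percentile on the Het scaffolds and the 28.3rd on chromosome 4. The shares were 76.6% in the proximal zones and 75.9% in the rest of the arms with a reciprocal overlap of 50%, and 97.2% in each with clusters over 2000 bp. The median percentile of the Het scaffolds lay -26.4 points from the rest with clusters over 2000 bp (-37.1 in replicate 1 and -15.7 in replicate 2), -16.7 in the combined list and -29.9 against the rest of 2L, 3L and 3R only, an alternative chosen after seeing the data. That of the proximal zones was -0.69 points in the combined list.

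No paired analysis was possible because the input that shares a number with each ChIP library has no cluster list used here, and no test between groups was made. Limits are the 2 replicates, the unknown score scale and read depth, the assembled sequence to which reads cannot be assigned, and the small number of Het clusters.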
